A study of Mus musculus with 8 samples.

Results

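Lungs of young mice that had been given retinoic acid before dexamethasone (RA-Dex) were compared with lungs that had been given oil before dexamethasone (Dex). The comparison rests on the 2 arrays titled RA-Dex and the 2 titled Dex, which are 4 of the 8 arrays of the series, and the arrays were chosen by their titles and not by any measured value. Mice received retinoic acid or oil at 3 days of age, and every lung in the comparison came from a mouse given dexamethasone on day 4, so that retinoic acid is the only labelled difference between the groups. Snap-frozen whole lung was the source of the RNA. Another group, RA, had retinoic acid on day 3 and saline on day 4; its 2 arrays give a reference level without dexamethasone and add to the estimate of the spread. The oil and saline arm (titled Dil) entered no fit below except 1 alternative, a fit of all 8 arrays. The Dex title names no first treatment, and oil is inferred from the design. The sources used here do not give strain, sex, doses, time of collection or any pooling of animals. Replicates carry the letters a and b, and nothing says that they were separate animals, so the errors and the p-values cover no more than the spread among these arrays.

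Alveolar septation is the step after birth by which the walls of the first air sacs are folded into smaller alveoli. It needs elastin-laying myofibroblasts, a growing capillary bed and a dividing cell population, and dexamethasone and other glucocorticoids are known to halt it in newborn rodents. Retinoic acid acts through nuclear receptors of the RAR and RXR families, which bind direct repeats of a short DNA motif, and it is known to promote septation. The title of the series names an inhibition of septation and its protection, and RA-Dex against Dex is the contrast that bears on protection.

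Signal is the array's measure of transcript abundance for 1 probe set, on a linear scale, and values under a floor of 84.8 were set to it before taking log2. A probe set was tested where its mean over the 6 arrays was above a signal of 199.9, and the others are called below the filter. Where pairs of signals follow each other without a group name, they are in the order Dex, RA-Dex and RA. Values in parentheses after a gene's signals are its log2 fold change, RA-Dex minus Dex, with its 95% interval or, after ±, its standard error. Median signals of the 6 arrays lay between 316 and 342. Across probe sets, the log2 signals of a Dex and an RA-Dex array correlated at 0.971 to 0.976, a range that held both the value between the Dex arrays (0.974) and that between the RA-Dex arrays (0.975). The arrays of RA correlated with those of the other groups at 0.957 to 0.964. Transcripts that define lung epithelium were abundant on every array, with Sftpc, surfactant protein C of alveolar type II cells, between 66508 and 80814 and Scgb1a1, the secretoglobin of club cells, between 40487 and 50816. Xist, transcribed from the inactive X chromosome of females, was between 419 and 950, and Eif2s3y, a Y-linked translation factor, between 120 and 267, on all 6 arrays. The Y-linked Uty (18.3 to 95.1) and Kdm5d (18.9 to 128) were below the filter, and the sex of the animals was not read from these values.

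Few transcripts separated the groups. Of 7325 probe sets tested, 4 rose and 3 fell in RA-Dex against Dex (limma, Benjamini-Hochberg adjusted p under 0.05), which is 0.0956% of those tested (0.0546% higher and 0.041% lower). They stand for 4 genes with 1 symbol, Erdr1 and Inmt, which rose, and Ctse and Ercc1, which fell (0.071% of 5637 genes), and for 2 probe sets that have no single gene name. At an unadjusted p under 0.05, 315 probe sets passed, or 4.3%, of which 129 were higher and 186 lower in RA-Dex. At the level of genes, with the brightest probe set standing for each of the 5637, 4.12% passed unadjusted. The median log2 fold change was -0.01 and the middle 50% of genes lay between -0.16 and 0.14. The design limits what could be seen: with 2 arrays a group, the 95% interval of a typical probe set reached 0.51 log2 units to either side of its estimate. That interval is not adjusted, and the smallest called change in size was -1.51.

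**Figure D1:**
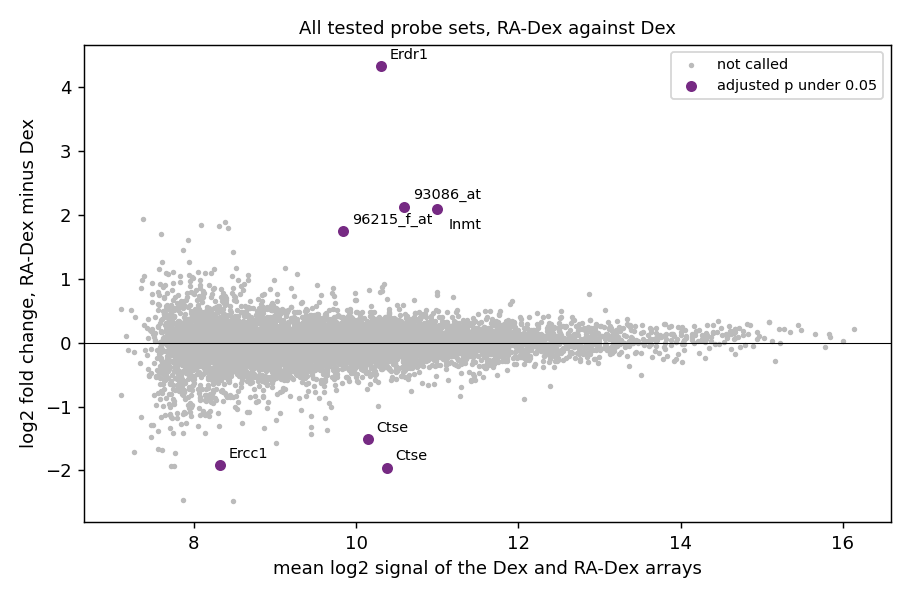
Each point is 1 of the 7325 tested probe sets, with its mean log2 signal over the Dex and RA-Dex arrays on the horizontal axis and its log2 fold change, RA-Dex minus Dex, on the vertical axis; purple points are the 7 with an adjusted p under 0.05. Erdr1 stands alone at 4.32, Inmt is at 2.09, the 2 called probe sets of Ctse are at -1.96 and -1.51, and Ercc1 is at -1.91.

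Inmt encodes indolethylamine N-methyltransferase, which methylates tryptamine and related amines and is abundant in lung. Its signal was 1071 and 927 on the Dex arrays, 3979 and 4502 on the RA-Dex arrays, and 1920 and 2482 on the RA arrays. The 3 groups did not overlap, and the lungs given both agents were highest. The rise in RA-Dex against Dex was 4.25-fold (log2 fold change 2.09 ± 0.186 SE, n = 2 against 2, limma adjusted p = 0.00179). Its size stayed between 1.98 and 2.19 log2 units when any 1 array was left out, but the call was lost without either RA-Dex array (limma adjusted p = 0.0812 for replicate a and 0.101 for b), when the variance had no trend with intensity (0.0655) and when low signals were not filtered (0.152).

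Ercc1 encodes the partner of the XPF endonuclease that cuts damaged DNA in nucleotide excision repair. Signals of 694 and 552 in Dex stood against 158 and 171 in RA-Dex, and RA was at 747 and 731. RA-Dex was thus the low group, and Dex lay close to RA. Ercc1 fell to 0.266 of its Dex level (-1.91 ± 0.253, n = 2 against 2, limma adjusted p = 0.0265). The size of this fall depended on how low signals were handled. With a pseudocount in place of the floor, the log2 fold change of Ercc1 was -1.50, still called (limma adjusted p = 0.027). The call was lost without either Dex array (0.271 without replicate a and 0.0737 without replicate b), without either RA-Dex array (0.41 and 0.182), with no intensity trend (0.0655), with no filter (0.204) and with the replicate letter as a block (0.0756), and the probe set was not tested under the stricter filter, while the log2 fold change stayed between -2.08 and -1.75 in the fits without 1 array.

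Upstream sequence was read for the genes called, because their level is the finding of the comparison. RefSeq windows of the 250 bases before the gene's start (GRCm38.p6) matched 2 of the 4 genes called, Inmt (chr6:55174991-55175240, minus strand) and Ercc1 (chr7:19344821-19345070, plus strand). Each is printed 5′ to 3′ in the direction of the gene, with matches to TATAAA in capitals.
Inmt: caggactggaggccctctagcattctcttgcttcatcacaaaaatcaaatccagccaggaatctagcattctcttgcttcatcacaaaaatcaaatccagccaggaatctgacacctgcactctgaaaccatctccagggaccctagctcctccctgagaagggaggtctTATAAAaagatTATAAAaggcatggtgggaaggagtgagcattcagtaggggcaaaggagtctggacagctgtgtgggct
Ercc1: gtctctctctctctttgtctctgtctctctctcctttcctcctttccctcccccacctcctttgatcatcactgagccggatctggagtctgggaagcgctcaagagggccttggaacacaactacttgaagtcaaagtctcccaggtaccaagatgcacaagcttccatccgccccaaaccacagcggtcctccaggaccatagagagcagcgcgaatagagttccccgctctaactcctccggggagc
The motifs searched on both strands were TATAAA, the retinoid receptor half-site AGGTCA, its direct repeat with a spacer of 5 bases, which contains the half-site, and the glucocorticoid receptor half-site AGAACA. Inmt held 2 matches to TATAAA, 80 and 69 bases before its start, and Ercc1 held none. Neither window held a match to AGGTCA, its direct repeat or AGAACA, which were found in 14%, 0.00913% and 16.1% of all 32851 such windows, as TATAAA was in 12.4%. A match or its absence describes these letters in this window only.

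Erdr1, which encodes a secreted factor first described in erythroid differentiation, had the largest change among the probe sets tested. Dex was at 259 and 307, RA-Dex at 5591 and 5723, and RA at 14029 and 12291. Dex was the low group by a wide margin, and the rise in RA-Dex against Dex was 20-fold (4.32 ± 0.163, n = 2 against 2, limma adjusted p = 7.9e-07). It remained called under all 18 alternatives run, at 2.14 where its probe sets were averaged. A second probe set of Erdr1 did not follow: it measured 384 and 638 in Dex, with 480 and 474 in RA-Dex, while RA had 818 and 452, with a log2 fold change of -0.05 and overlapping arrays.

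Ctse encodes cathepsin E, an aspartic protease of endosomes in immune and epithelial cells. The probe set of highest signal measured 2325 and 2947 in Dex, with 703 and 647 in RA-Dex, while RA had 541 and 671. Here the Dex arrays were the high group and RA-Dex overlapped with RA. Ctse fell to 0.258 of its Dex level (-1.96 ± 0.207, n = 2 against 2, limma adjusted p = 0.00584). A second probe set, at 2072 and 1761 in Dex against 586 and 764 in RA-Dex, also fell (-1.51 ± 0.205, limma adjusted p = 0.0266), whereas the remaining one, of low signal, had a log2 fold change of -0.02. The call of the first was lost without Dex replicate b (limma adjusted p = 0.063), without either RA-Dex array (0.18 and 0.163), with no intensity trend (0.0778), with no filter (0.204) and when the 3 probe sets were averaged (-1.16, 0.169).

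Both called probe sets without a single gene name rose. Probe set 96215_f_at went from 494 and 510 in Dex to 1751 and 1611 in RA-Dex (1.74 ± 0.2, limma adjusted p = 0.00926), and RA was at 3188 and 2315. Probe set 93086_at went from 490 and 1106 to 2984 and 3474 (2.13 ± 0.306, limma adjusted p = 0.0378), with RA at 8205 and 7564. In both, as in Erdr1, Dex was lowest, RA-Dex intermediate and RA highest.

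**Figure D2:**
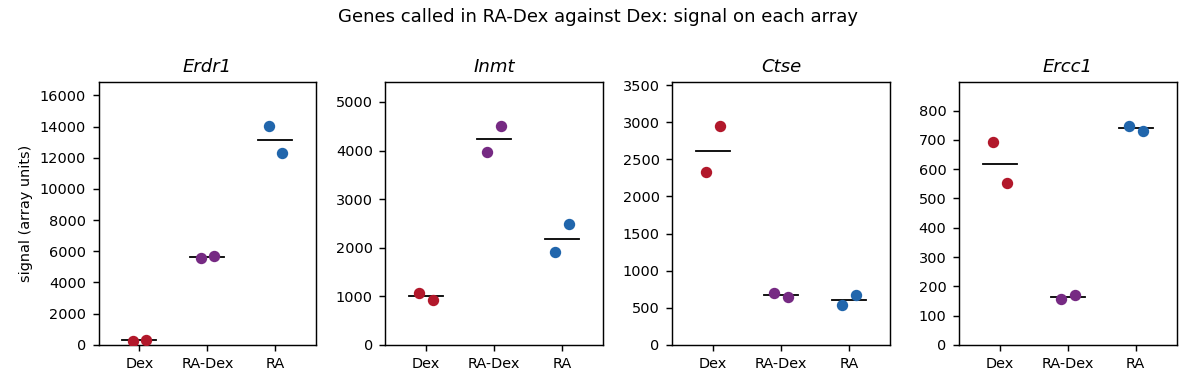
Signal on each array (vertical axes start at 0 and differ between panels) for the 4 genes called in RA-Dex against Dex, with points for the 2 arrays of Dex, RA-Dex and RA and a bar at their geometric mean. Inmt is highest in RA-Dex (3979 and 4502) and Ercc1 is lowest there (158 and 171). In Erdr1 Dex is lowest, RA-Dex intermediate and RA highest, while in Ctse the Dex arrays stand above the other 4.

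Genes were also described by list, each by the median log2 fold change of its tested members. With 2 arrays a group these medians are imprecise: when 1 array was left out, 20 of the 40 changed sign, 15 kept their sign but moved by over 1.5 times, and 5 did neither, those of glucocorticoid targets, DNA replication, mitosis, heart muscle and liver proteins. Over all 5637 genes, 1.76% were higher and 2.36% lower at an unadjusted p under 0.05. Of them 2729 were above 0 and 2907, or 51.6%, below. Both RA-Dex arrays were above both Dex arrays in 16.7% and below in 18.3%. The counts of each list are to be read beside these shares. All 40 lists were chosen with earlier results of these data known, and none is independent evidence of a direction.

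No gene of the retinoid system was called. Of 31 listed genes of retinoid receptors, binding proteins and metabolism, 13 were tested and 0 were called by limma (0 also at an unadjusted p under 0.05), with a median of 0.03. Rarg, a retinoic acid receptor, was at 461 and 304 in Dex against 457 and 562 in RA-Dex (0.44, 95% interval -0.35 to 1.22). Rxra, a partner receptor, was at 671 and 755 in Dex against 851 and 695 (0.11, -0.36 to 0.59). The arrays of both receptors overlapped between the groups. Dhrs3, which returns retinaldehyde to retinol and is known to be induced by retinoic acid, measured 1078 and 1060 in Dex, with 1418 and 1336 in RA-Dex, while RA had 1300 and 1590 (0.36, -0.04 to 0.77). Its RA-Dex arrays were both above its Dex arrays, without a call. Rbp4, the plasma carrier of retinol, had a value of 0.45 (-0.13 to 1.03), the retinol dehydrogenase Adh1 -0.03 (-0.41 to 0.36) and the retinaldehyde dehydrogenase Aldh1a1 0.03 (-0.26 to 0.33). Rara and Crabp2 were below the filter on low signals, as were Cyp26a1, the enzyme that clears retinoic acid, with 20.3 and 25.2 in Dex against 63.2 and 107 in RA-Dex, and Crabp1, with 138 and 134 against 20.3 and 20.5; these low values were not tested.

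Among genes known to respond to retinoic acid, 16 of 30 were tested and 0 were called by limma (1 at an unadjusted p under 0.05), with a median of 0.13 that was 0.02 without RA-Dex replicate a and 0.06 without Dex replicate a. That 1 was Bhlhe40, a transcriptional repressor that also belongs to the clock, which measured 173 and 219 in Dex, with 300 and 372 in RA-Dex, while RA had 303 and 375 (0.78, 95% interval 0.03 to 1.53). Tgm2, a transglutaminase induced by retinoids in many cells, had a value of 0.35 (-0.25 to 0.96), and Hoxa5, a homeobox gene needed for lung development, 0.27 (-0.12 to 0.65). In the list of Hox genes and other factors of lung mesenchyme, 18 of 29 were tested, 0 were called and 1 passed unadjusted, Hoxa4 (0.67, 0.01 to 1.32), with a median of 0.03. Meox2, a homeobox factor found in mesenchyme and vessel walls, was at 658 and 802 in Dex against 674 and 691 in RA-Dex, and RA had 4001 and 2584 (-0.09, -0.61 to 0.42).

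Most of the known glucocorticoid targets tested had signals in RA-Dex that were close to or above those in Dex. Of 30 tested genes in a list of 35 known glucocorticoid targets, 3 were higher and 0 lower at an unadjusted p under 0.05 (all genes: 1.76% and 2.36%). After adjustment 1 rose, Inmt, described above, and 0 fell. Another 24 members had values above 0 and 5 below, around a median of 0.19, and in 18 both RA-Dex arrays were above both Dex arrays, a separation that 16.7% of all genes showed. The list was drawn up with results of these samples known and is not independent evidence of a direction. With quantile normalization 21 were above 0 and 9 below. The median log2 signal of the list was 11.5 and 11.4 on the Dex arrays, 11.8 on both RA-Dex arrays, and 9.99 and 10.3 on the RA arrays. Fkbp5, a co-chaperone that lowers the receptor's affinity for hormone, measured 6440 and 5917 in Dex, with 6732 and 6463 in RA-Dex, while RA had 900 and 1134. Its difference between RA-Dex and Dex was 0.10 (95% interval -0.27 to 0.46). Zbtb16, a zinc-finger transcription factor, was at 6817 and 6532 in Dex against 8492 and 8557 in RA-Dex (0.35, -0.03 to 0.74), against 350 and 268 in RA. Igfbp3, which binds insulin-like growth factors, was at 3320 and 3697 against 3513 and 3569 (0.02, -0.37 to 0.40), and 397 and 334 in RA. For these genes the 2 dexamethasone groups lay close together and RA far below.

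In Pdk4, Per2 and Lcn2, RA-Dex was above Dex and both were above RA. Pdk4, a kinase that holds back glucose oxidation, measured 1066 and 1047 in Dex, with 1584 and 1815 in RA-Dex, while RA had 240 and 193 (0.68, 95% interval 0.22 to 1.15, limma adjusted p = 0.827). Per2, a clock repressor, was at 374 and 364, 540 and 584, and 126 and 199 (0.61, -0.11 to 1.32). Lcn2, a siderophore-binding protein, was at 4494 and 4321, 5569 and 6015, and 2723 and 3090 (0.39, 0.07 to 0.72), although another probe set of it had the opposite sign. Cdkn1a, an inhibitor of the cell cycle, had a value of 0.27 (-0.16 to 0.71), with another probe set of opposite sign, and Nfkbia, which holds back NF-kappaB, 0.35 (-0.02 to 0.72). A dimmer probe set of Nfkbia had a value of 0.49 (0.12 to 0.85, limma adjusted p = 0.93). Nr3c1, the glucocorticoid receptor, and Tsc22d3, one of its targets, were below the filter and were not tested. Nr3c1 was at 47.4 and 45.8 in Dex against 77.8 and 81 in RA-Dex. Tsc22d3 was at 218 and 327 in Dex against 96.2 and 81.1 in RA-Dex, with RA at 101 and 168. Its RA-Dex signals were thus lower than in Dex, unlike the median of the tested targets.

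Growth factors and morphogens of septation had a median of 0.08 over 26 tested genes of 37, with 0 called by limma and 1 higher and 1 lower at an unadjusted p under 0.05. Igfbp6, which binds insulin-like growth factor II, measured 2933 and 3267 in Dex, with 5170 and 4596 in RA-Dex, while RA had 2677 and 2431 (0.66 ± 0.154, limma adjusted p = 0.589), so RA-Dex was the highest group. Igfbp4 had a value of -0.35 (95% interval -0.68 to -0.02), Igfbp2 -0.39 (-0.83 to 0.06) and Bmp4, a ligand of the bone morphogenetic protein pathway, 0.42 (-0.02 to 0.85). Pdgfra, the receptor of septal myofibroblast precursors, was at 4304 and 4645 in Dex against 4870 and 4327 in RA-Dex, and RA had 2452 and 1850 (0.04, -0.35 to 0.42). Its ligand Pdgfa was at 2337 and 2435, 2694 and 2440, and 4012 and 4026 (0.10, -0.23 to 0.44). The upper ends of these intervals bound a rise at 0.42 and 0.44 log2 units.

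In the endothelium, 27 of 32 listed genes were tested, 0 were called by limma and 4 were higher and 0 lower at an unadjusted p under 0.05, around a median of 0.16 (all genes: -0.01, 1.76% higher and 2.36% lower). Kdr, the main signalling receptor for VEGF-A on endothelium, measured 807 and 810 in Dex, with 1369 and 1191 in RA-Dex, while RA had 2178 and 1879. The 3 groups did not overlap and RA-Dex was intermediate. The difference between RA-Dex and Dex was 1.58-fold (0.66 ± 0.182, 95% interval 0.26 to 1.07), which did not pass the test over all probe sets (limma adjusted p = 0.711). Tie1, an endothelial receptor kinase, measured 2755 and 2682 in Dex, with 4258 and 3431 in RA-Dex, while RA had 2865 and 3494 (0.49, 0.11 to 0.87). Cdh5, the cadherin of endothelial junctions, was at 7985 and 9024 against 11927 and 9557 (0.33, 0.00 to 0.66). Edn1, the vasoconstrictor endothelin 1, was at 1574 and 1319, 1893 and 2073, and 816 and 639 in RA (0.46, 0.02 to 0.90). In 11 of the 27 tested both RA-Dex arrays were above both Dex arrays, and in 0 both were below (all genes: 16.7% above and 18.3% below). A probe set of Nos3, the nitric oxide synthase on the list, was below the filter and not tested. It was at 281 and 358 in Dex against 138 and 65.3 in RA-Dex. The list's median was 0.08 without Dex replicate a. Not all endothelial genes leaned that way: Flt1, another VEGF receptor, was at -0.11 (-0.59 to 0.38), with another probe set of opposite sign, and Pecam1, an adhesion molecule of endothelial junctions, -0.67 (-1.73 to 0.40). In whole lung, a change in the number of cells of a type and a change in RNA per cell cannot be told apart.

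**Figure D3:**
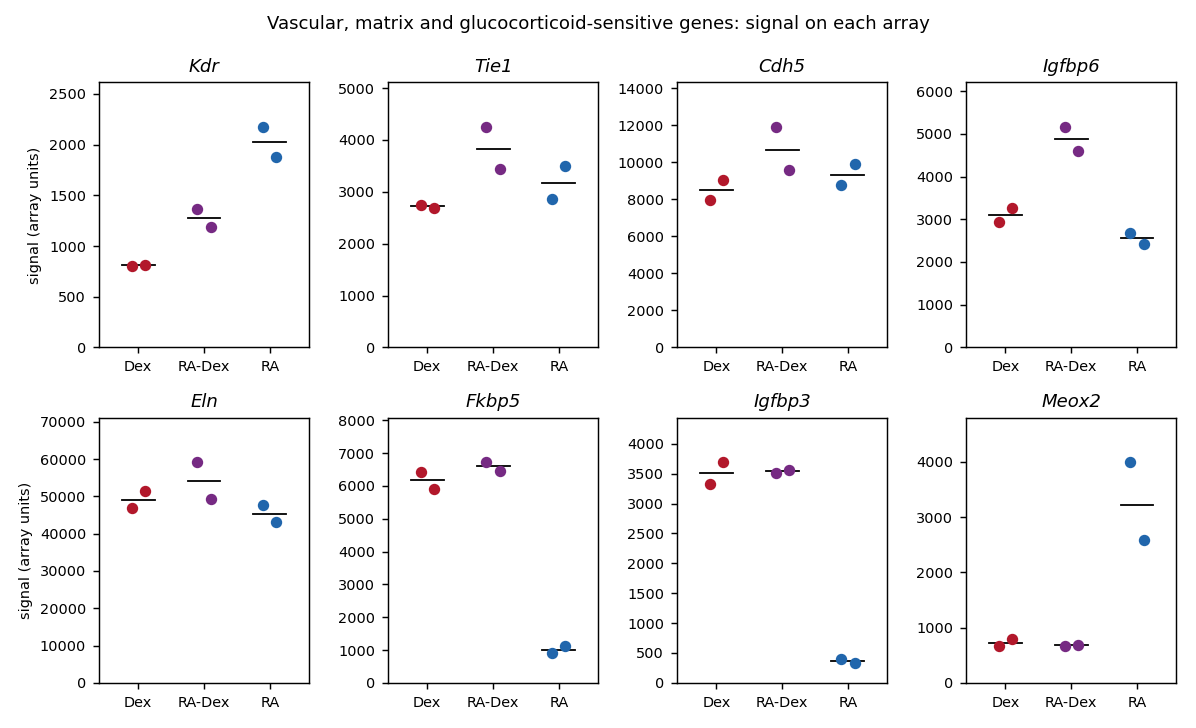
Signal on each array (vertical axes start at 0 and differ between panels) for 8 genes of vessels, growth factors, matrix and the glucocorticoid response, with points for the 2 arrays of each group and a bar at their geometric mean. Kdr lies between Dex and RA in RA-Dex (1369 and 1191), while Fkbp5, Igfbp3 and Meox2 are close to Dex in RA-Dex and far from RA; none of the 8 was called.

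Elastin and the matrix showed small values. Eln, the core of the elastic fibre, measured 46879 and 51392 in Dex, with 59251 and 49424 in RA-Dex, while RA had 47609 and 43079. These arrays overlapped, with a difference of 0.14 between RA-Dex and Dex (95% interval -0.11 to 0.39). A dimmer probe set of Eln was at 3241 and 3086 in Dex against 3855 and 3740 in RA-Dex (0.26, -0.16 to 0.68). Its Dex and RA-Dex arrays did not overlap, and RA, at 1668 and 2412, lay below both. Over the elastic fibre list, 12 of 18 were tested, 0 were called by limma, 1 was higher at an unadjusted p under 0.05, and the median was 0.14. That 1 was Lox, which crosslinks elastin, at 2647 and 3392 in Dex, with 3750 and 4333 in RA-Dex, while RA had 1327 and 1091 (0.43, 0.01 to 0.85). Of the 12 elastic fibre genes, 10 were above 0 and 2 below. In 3 both RA-Dex arrays were above both Dex arrays, and in 0 both were below. All 25 listed collagen and basement membrane genes were tested and 0 were called, with 0 unadjusted and a median of 0.09; Col4a1, a chain of basement membrane collagen, had a value of 0.25 (-0.02 to 0.51) and Col3a1, a fibrillar collagen, 0.29 (-0.08 to 0.66), with another probe set of opposite sign. For smooth muscle and myofibroblasts 13 of 16 were tested, with 0 called, 0 unadjusted and a median of 0.11. Of the 13, 11 were above 0 and 2 below (all genes: 51.6% below). In 7 both RA-Dex arrays were above both Dex arrays, and in 1 both were below (all genes: 16.7% and 18.3%). Acta2, smooth muscle actin, was at 9344 and 8480 against 10543 and 10327 (0.23, -0.04 to 0.50). Among proteases and inhibitors 16 of 27 were tested, 0 were called, and the median was 0.03, with Mmp11 (0.52, 0.02 to 1.02) and Mmp14 (-0.43, -0.84 to -0.03), both matrix metalloproteinases, on opposite sides at an unadjusted p under 0.05.

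**Figure D4:**
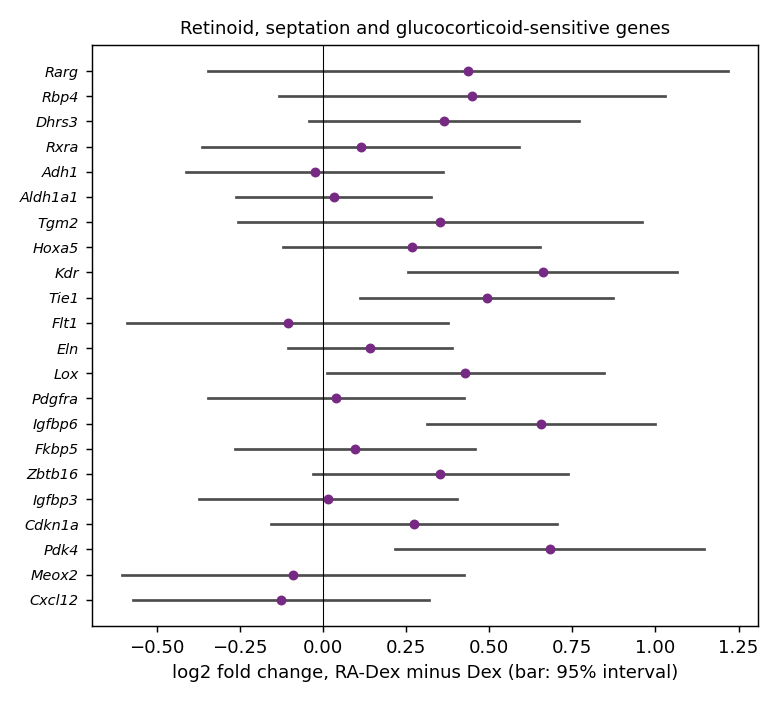
Log2 fold change, RA-Dex minus Dex (points), with its 95% interval from the fit (bars) for 22 genes of the retinoid, septation and glucocorticoid groups. Most intervals hold 0; those of Kdr (0.26 to 1.07), Tie1 (0.11 to 0.87), Igfbp6 (0.31 to 0.998), Pdk4 (0.22 to 1.15) and Lox (0.01 to 0.85) do not, and none of the 22 was called after adjustment.

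The genes of mitosis lay lower in RA-Dex than in Dex as a list, although none passed the test on its own. Of 23 tested members of 29, 0 were called by limma. At an unadjusted p under 0.05, 6 were lower and 0 higher (all genes: 2.36% and 1.76%). All 23 tested members had values below 0, where 51.6% of all genes did, and in 20 both RA-Dex arrays were below both Dex arrays, a separation found in 18.3% of all genes. The list's median was -0.40. It stayed between -0.47 and -0.37 in all 18 alternatives, and all 23 values were also below 0 under quantile normalization, cyclic loess and the pseudocount. The median log2 signal of the list was 10.04 and 9.98 on the Dex arrays, 9.60 and 9.61 on the RA-Dex arrays, and 9.19 and 9.16 on the RA arrays, so that RA-Dex was intermediate. Because the members share their expression in dividing cells, they are not independent of each other, and no test was made of the list.

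By member, Ube2c, the ubiquitin-conjugating enzyme of mitotic exit, measured 758 and 727 in Dex, with 295 and 291 in RA-Dex, while RA had 480 and 167 (-1.34, 95% interval -2.28 to -0.40). Cdc20, an activator of the same step, was at 3087 and 3535, 2485 and 2229, and 1925 and 1736 (-0.49, -0.85 to -0.12). Ccnb2, a mitotic cyclin, was at 6437 and 6226, 5030 and 4724, and 3158 and 2943 (-0.38, -0.68 to -0.07). Ttk, a kinase of the spindle checkpoint, was at 425 and 470, 258 and 250, and 303 and 229 (-0.82, -1.50 to -0.13). In each of these 4 genes the RA-Dex arrays were both below the Dex arrays. Mki67, the proliferation marker, was at 1074 and 1262 in Dex against 929 and 1024 in RA-Dex, and RA had 497 and 572 (-0.26, -0.70 to 0.19).

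DNA replication and the G1 phase had a smaller median of -0.20. Of 24 tested genes of 32, 0 were called by limma. At an unadjusted p under 0.05, 3 were lower and 0 higher (all genes: 2.36% and 1.76%). Values below 0 were found in 19 of the 24, where 51.6% of all genes had them. Mcm3, a subunit of the replicative helicase, measured 1228 and 1352 in Dex, with 821 and 864 in RA-Dex, while RA had 1660 and 1930 (-0.61, 95% interval -1.02 to -0.21). Ccnd1, the cyclin that drives entry into the cycle, was at 1678 and 1714, 1135 and 1128, and 2429 and 2286 (-0.58, -0.95 to -0.22), with another probe set of opposite sign. Mcm5 was at 1675 and 1715, 1332 and 1246, and 2738 and 3342 (-0.40, -0.78 to -0.01). For these 3 genes RA-Dex was the lowest group, below Dex and further below RA, which differs from the order in the mitosis list.

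Nucleotide synthesis genes had a median of -0.25 over 17 tested of 28, with 0 called by limma. At an unadjusted p under 0.05, 1 was higher and 2 were lower (all genes: 1.76% and 2.36%). The median was -0.08 without RA-Dex replicate a, -0.15 when either RA-Dex replicate b or Dex replicate a was dropped, and -0.13 when Dex replicate b was. Cad, which starts pyrimidine synthesis, went the other way from most of them: it was at 63.4 and 67.8 in Dex, both under the floor, 368 and 286 in RA-Dex, while RA had 634 and 428 (1.94 ± 0.377, a size that depends on the floor, limma adjusted p = 0.239). The mitochondrial folate enzymes Shmt2 (825 and 739 against 242 and 551; -1.10, 95% interval -1.85 to -0.34) and Mthfd2 (1545 and 1410 against 829 and 1163; -0.59, -1.05 to -0.13) were lower in value. In DNA repair 18 of 28 genes were tested, with the fall of Ercc1 as the 1 call, 2 lower and 0 higher at an unadjusted p under 0.05, and a median of 0.00. The other was Brca2, of homologous recombination (367 and 288 against 132 and 172; -1.11, -1.91 to -0.30), while Ercc3, the helicase of nucleotide excision repair, had a value of -0.44 (-0.98 to 0.11).

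**Figure D5:**
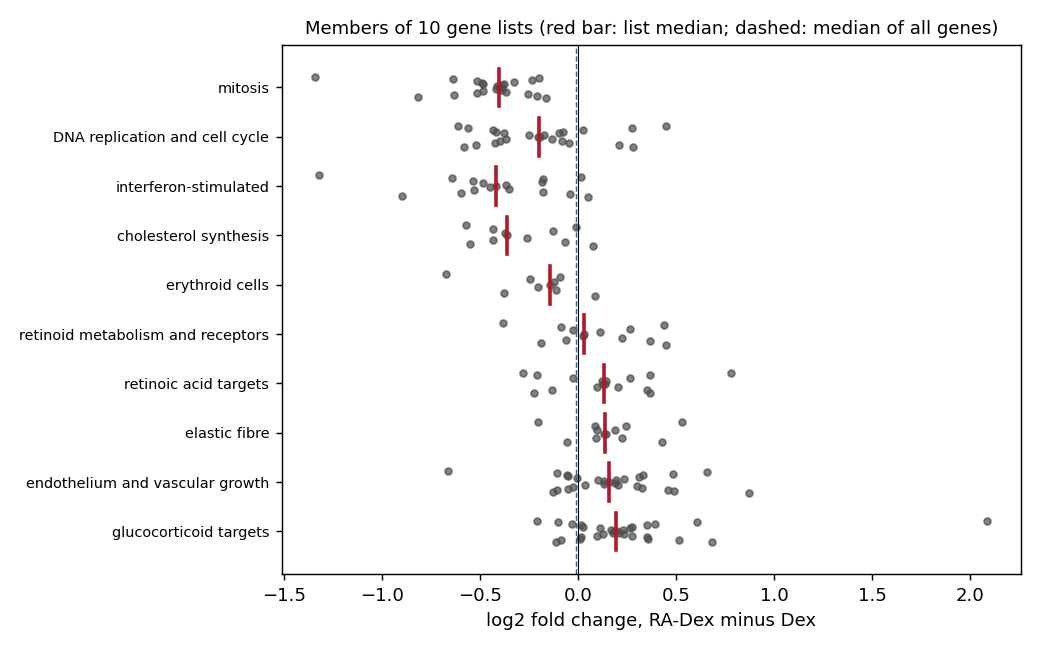
Each grey point is the log2 fold change, RA-Dex minus Dex, of 1 tested member of a gene list, the red bar is the list's median, the solid line is 0 and the dashed line is the median of all genes (-0.01). All 23 mitosis genes lie below 0 around -0.40, the interferon-stimulated list is centred at -0.42, and the glucocorticoid target list, whose farthest point is Inmt, at 0.19.

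Interferon-stimulated genes also had low values in RA-Dex. Of 17 tested members of 28, 0 were called by limma and 5 were lower and 0 higher at an unadjusted p under 0.05. The median was -0.42, with a range of -0.50 to -0.27 over the alternatives, the latter without RA-Dex replicate b. Of these 17 genes, 15 had values below 0 (14 with quantile normalization or cyclic loess), and in 12 both RA-Dex arrays were below both Dex arrays. Over all genes, 2.36% were lower unadjusted, 51.6% were below 0 and 18.3% were separated in that direction. Isg15, a ubiquitin-like protein of the antiviral response, measured 1277 and 959 in Dex, with 482 and 406 in RA-Dex, while RA had 581 and 501 (-1.32 ± 0.232, limma adjusted p = 0.123). It passed when only the 4 arrays of Dex and RA-Dex were fitted (limma adjusted p = 0.0432) and without either RA array (0.0438 and 0.0493). Psmb9, a subunit of the immunoproteasome, was at 386 and 354, 190 and 207, and 352 and 417 (-0.90, 95% interval -1.57 to -0.22). Isg20, an exonuclease, was at 1205 and 1335, 847 and 828, and 1019 and 921 (-0.60, -1.01 to -0.19). Ifi35 was at 833 and 843, 437 and 656, and 654 and 743 (-0.65, -1.18 to -0.11).

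Cholesterol synthesis had a median of -0.36 over 11 tested genes of 19, of which 0 were called by limma. At an unadjusted p under 0.05, 1 was lower (all genes: 2.36%). Values below 0 were found in 10 (9 with quantile normalization or cyclic loess), where 51.6% of all genes had them. The median was -0.22 without RA-Dex replicate a and -0.19 under the stricter filter. Sqle, an enzyme of sterol ring formation, measured 1051 and 1014 in Dex, with 688 and 700 in RA-Dex, while RA had 1105 and 1214 (-0.57, 95% interval -0.98 to -0.17). Mvd, of the mevalonate pathway, had a value of -0.55 (-1.23 to 0.12) and Fdps -0.37 (-0.80 to 0.05). In lipid storage and fatty acid use 18 of 26 were tested, 0 were called, Pdk4 passed unadjusted, and the median was 0.03.

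The epithelial lists lay near 0. Alveolar type I markers (8 of 14 tested) had a median of 0.06 with 0 called by limma and 0 unadjusted; Pdpn, a membrane mucin of type I cells, was at 2501 and 1794 against 2431 and 3290 (0.42, 95% interval -0.30 to 1.13). Alveolar type II and surfactant genes (11 of 18) had a median of 0.07 with 0 called, and Sftpc was at 67474 and 66508 against 80814 and 73917 (0.21, 0.02 to 0.39). Airway genes (12 of 18) had a median of 0.11 with 0 called; Scgb1a1 was at 40487 and 40543 against 50816 and 47828 (0.28, 0.06 to 0.50), and Cyp2b10, a cytochrome P450, at 649 and 701 against 969 and 888 (0.46, 0.02 to 0.90). Sftpc, Scgb1a1 and Cyp2b10 passed at an unadjusted p under 0.05. Mesothelial genes (4 of 9) had a median of -0.10 with 0 called and 0 unadjusted.

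Blood cell markers gave mixed values, and none was called by limma. For B cells 10 of 16 were tested, with 3 higher and 0 lower at an unadjusted p under 0.05 (all genes: 1.76% and 2.36%). The list's median was 0.21 (0.41 when RA-Dex replicate b was dropped, 0.37 when Dex replicate b was, and 0.34 under the stricter filter). Of the 10, 6 were above 0 and 4 below, the lowest Vpreb1, part of the receptor of B cell precursors, at -1.02 (95% interval -2.28 to 0.24; chosen after its values were seen). The median log2 signal of the list overlapped, with 8.41 and 8.60 in Dex against 8.64 and 8.54 in RA-Dex. Cd79a, part of the B cell receptor, measured 213 and 100 in Dex, with 378 and 261 in RA-Dex, while RA had 345 and 545 (1.11, 95% interval 0.12 to 2.09). Its partner Cd79b was at 276 and 308, 422 and 499, and 546 and 791 (0.65, 0.05 to 1.26). Cd74, the invariant chain of MHC class II, was at 4953 and 5330, 7189 and 6380, and 5887 and 5896 (0.40, 0.10 to 0.70). The antibody heavy chain Ighm, by its brighter probe set, had a value of 0.36 (-0.05 to 0.77). The summed signal of the B cell list was 13071 to 13585 in Dex, 15607 to 16049 in RA-Dex and 16488 to 17332 in RA. Much of it came from Cd74, which is also an MHC class II gene, and from Cd24a. Cd24a was at 5532 and 4424 in Dex against 4730 and 5944 in RA-Dex, with overlapping arrays. The sums mainly follow these genes and say little of the other members. MHC class II genes (7 of 8) had a median of 0.27 (0.09 without Dex replicate a). All 7 tested were above 0, where 2729 of all 5637 genes were. Cd74 and H2-DMa (0.47, 0.05 to 0.89) passed unadjusted. Macrophage genes (16 of 24) had a median of -0.04, with 7 above 0 and 9 below. In 6 both RA-Dex arrays were below both Dex arrays and in 1 above. Cd14, a co-receptor for endotoxin, had a value of -0.32 (95% interval -0.73 to 0.08), Tyrobp, a signalling adaptor, -0.27 (-0.67 to 0.12) and Chil3, a chitinase-like protein, -0.37 (-0.92 to 0.18). The gene that passed unadjusted was Csf1r, the receptor of macrophage growth factor, at 610 and 647 against 807 and 907 (0.45, 0.02 to 0.87), with another probe set of opposite sign.

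Neutrophil genes (9 of 14) had a median of 0.22, with 8 above 0 and 1 below (all genes: 2729 above and 2907 below). Ngp, a granule protein, measured 126 and 163 in Dex, with 362 and 731 in RA-Dex, while RA had 342 and 429 (1.84 ± 0.388, limma adjusted p = 0.348), while Csf3r, the receptor of the neutrophil growth factor, was at 1405 and 2164, 753 and 1026, and 1614 and 1548 (-0.99 ± 0.24, limma adjusted p = 0.596). Ngp and Csf3r pointed in opposite directions, Csf3r being the 1 member below 0, and with Lcn2 they were the 3 that passed unadjusted. Erythroid genes (9 of 19) had a median of -0.14 with 8 below 0, where 51.6% of all genes were. Alas2, which starts heme synthesis in red cell precursors, measured 7133 and 6399 in Dex, with 4395 and 4086 in RA-Dex. In RA it had 3092 and 4317 (-0.67, 95% interval -1.06 to -0.28). The alpha globin Hba-a1 was at 57512 and 56161 against 62204 and 58494. The summed signal of the erythroid list was 88715 to 91187 in Dex and 86196 to 90547 in RA-Dex. Red cell precursors divide, and the part of such cells in the values of the mitosis list was not tested. T and NK cell genes (3 of 20) had a median of 0.16 with 0 passing unadjusted.

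Transcripts of tissues that dissection can carry along were compared for the same reason. Heart muscle genes (13 of 19) had a median of 0.19, with 0 called by limma and 2 unadjusted, Myl7 (4317 and 3881 against 5481 and 5871) and Myh6 (1365 and 1208 against 1790 and 1666); both encode atrial sarcomere proteins, and cardiac muscle also sheathes the pulmonary veins of mice. Of the 13 heart muscle genes, 10 were above 0 and 3 below (all genes: 51.6% below). In 7 both RA-Dex arrays were above both Dex arrays, and in 1 both were below (all genes: 16.7% and 18.3%). The summed signal of the 13 was 21175 to 21369 in Dex and 25376 to 25743 in RA-Dex. Skeletal muscle genes (12 of 22) had a median of 0.01 with 6 above and 6 below 0, of which Tnnt1 (0.75, 95% interval 0.23 to 1.27, another probe set of opposite sign), Pvalb (0.74, 0.06 to 1.41) and Myl1 (-0.91, -1.76 to -0.06) passed unadjusted. Squamous epithelium genes (11 of 22) had a median of -0.13 and 0 unadjusted, thymus and oesophagus genes (4 of 9) -0.02 with Rag1 (685 and 570 against 1335 and 957) unadjusted, and liver and plasma protein genes (3 of 16) 0.35 with 0 unadjusted. The part of these tissues in the called genes was not tested.

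Remaining lists had 0 genes called by limma. Immediate early and stress genes (24 of 27) had a median of 0.06; Ccn1, a matricellular growth factor, measured 617 and 705 in Dex, with 1048 and 1150 in RA-Dex, while RA had 532 and 534 (0.73, 95% interval 0.29 to 1.18), and Jund had a value of 0.28 (0.03 to 0.53). Clock genes (11 of 19) had a median of 0.07, with Bhlhe40 and Tef (0.39, 0.01 to 0.77) passing unadjusted. Inflammatory mediators (10 of 31) had a median of -0.03 with 0 unadjusted, and Cxcl12, a chemokine of stroma, was at 651 and 617 against 531 and 635 (-0.13, -0.57 to 0.32), with RA at 1519 and 1350; another probe set had the opposite sign. Metallothionein and redox genes (26 of 30) had a median of -0.04 and 1 unadjusted, the plasma glutathione peroxidase Gpx3 (13044 and 12843 against 16642 and 14931). Heat shock and unfolded protein genes (23 of 26) had a median of 0.05, ribosomal protein genes (8 of 26) 0.08 and oxidative phosphorylation genes (19 of 28) -0.07. The heat shock and oxidative phosphorylation lists had 0 unadjusted, and the ribosomal list 1, Rplp0 (0.27, 0.05 to 0.49). Of 6 sex-linked transcripts 2 were tested, Xist (-0.41, -1.16 to 0.34) and Eif2s3y (0.13, -0.89 to 1.15), with 0 unadjusted and a median of -0.14.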

How the data were processed

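Per the labels, total RNA from mouse lung was hybridised to arrays. The deposited values are linear intensity signals, 1 per probe set and array. A mean trimmed by 2% at either tail was 799.9 on all 8 arrays, so the authors had scaled them, and they were not normalized again. The sources used here do not name the software.

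Of 12488 probe sets, 66 controls were left out. Signals of the 6 arrays used were floored at their pooled 25th percentile (84.8), and probe sets with a mean log2 above the pooled 40th percentile were kept. Symbols came from the platform annotation, updated by Entrez ID through RefSeq (GRCm38.p6): 10833 probe sets had 1 symbol (10817 matched), 396 several and 1193 none. limma 3.58.1 in R 4.3.3 fitted a mean per group (eBayes with trend, two-sided, 3 residual and 7.13 prior degrees of freedom), with Benjamini-Hochberg adjustment over 7325 probe sets and 95% intervals from the same fit. The fit was also run on simulated data, with large known changes in 200 probe sets of higher signal. Changes as small as most of those described above were not simulated. There were 18 alternatives: 2 other sets of arrays, 2 normalizations, 2 filters, a pseudocount, 2 variance models, a replicate block, a minimum change, averaged probe sets, and 6 fits without 1 array.

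Genes named were the largest calls with non-overlapping arrays (up to 15 each way), up to 4 members of each of 40 lists by smallest p, and a set of 22, of which Rarb and Cyp26b1, among others, had no probe set named here. Adh1, Aldh1a1, Rxra, Pdgfra, Pdgfa, Pecam1, Mki67, Cyp26a1, Crabp1, Rara, Nos3, Cd24a, Uty and Kdm5d were added after their values were seen. Members and lists were chosen with earlier results of these data known.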

Additional observations from a re-analysis of the deposited data

How the results depend on the processing

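The main counts of 4 probe sets higher and 3 lower in RA-Dex were the same in the fit of all 8 arrays, under both normalizations, with the pseudocount and with the minimum fold change, and in each of these fits all 7 calls were shared. The stricter filter gave 4 and 3, with 6 shared, and the robust variance model 3 and 3. With no intensity trend 1 was higher and 0 were lower (Erdr1 alone). With no filter 8 were higher and 9 lower, of which 1 was shared, and the cause was not tested. Fitting the 4 arrays of Dex and RA-Dex alone gave 4 higher and 7 lower. Averaging the probe sets of a gene gave 2 genes higher and 1 lower, from 5637 tested. Over the 6 fits without 1 array, the count of higher probe sets ranged from 1 (without RA-Dex replicate a or b) to 5 (without Dex replicate a or either RA array), and that of lower ones from 0 (without Dex replicate b or either RA-Dex array) to 7 (without either RA array). The same letters were not shown to pair the arrays: deviations of the a arrays correlated at -0.101 between Dex and RA-Dex, -0.188 between Dex and RA, and 0.111 between RA-Dex and RA. With the replicate block 4 were higher and 1 lower. Of 158 named genes 154 were not called; Isg15 alone among them passed in any alternative, and 0 calls reversed, while 23 of the uncalled genes changed sign in at least 1 alternative. Of the 40 list medians, 19 moved beyond the spread between arrays in at least 1 alternative. Without further replicates, the 95% interval of a typical probe set, which is not adjusted, reached 0.51 log2 units to either side. A call after adjustment took more than that. The smallest called change in size was -1.51, of the second probe set of Ctse, and Nnt at -1.37 was not called.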

Other observations

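Several transcripts outside the naming rule are given here after their values were seen; none of them passed the test. Nnt, the mitochondrial transhydrogenase that supplies NADPH, measured 1334 and 1227 in Dex, with 453 and 542 in RA-Dex, while RA had 444 and 522 (log2 fold change -1.37 ± 0.213, limma adjusted p = 0.066). Hmces, a protein that shields abasic sites in DNA, measured 225 and 133 in Dex, with 706 and 583 in RA-Dex, while RA had 562 and 696 (1.89 ± 0.31, limma adjusted p = 0.0908). Like Ctse, both had Dex arrays that stood apart from the other 4. Ada, adenosine deaminase of purine salvage, measured 960 and 742 in Dex, with 89.6 and 258 in RA-Dex, while RA had 372 and 499 (-2.47 ± 0.443, limma adjusted p = 0.136). The dimmer probe set of Ighm was at 374 and 373, 928 and 759, and 1237 and 1177 (1.17 ± 0.204, limma adjusted p = 0.123), and the light chain segment Igkv6-23 was at 360 and 367, 627 and 817, and 1111 and 1467 (0.98 ± 0.23, limma adjusted p = 0.589). In both antibody genes RA-Dex lay between Dex and RA. Tent5c, a poly(A) polymerase, was at 3025 and 3634, 1877 and 1837, and 1443 and 1112 (-0.84 ± 0.187, limma adjusted p = 0.506), again with RA-Dex in between.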
